A study of Mus musculus with 3 samples.

Results

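The genes described here encode hnRNP proteins, SR proteins and the PRPF proteins of the spliceosome. They are the 45 genes of 39179 in the deposited count table whose symbols begin with Hnrnp (21 genes), Srsf (11 genes) or Prpf (13 genes). All are protein-coding except the processed pseudogene Hnrnpa1l2-ps. The RNA came from Flag-FTO transgenic mice on the C57BL/6 background, aged 16 weeks and fasted overnight, and the tissue was white fat. It was precipitated with an anti-Flag M2 antibody (2 libraries, Flag-IP 1 and Flag-IP 2) or with IgG (1 library, IgG-IP), and sequenced. FTO demethylates adenosines in RNA, and the IgG library measures RNA that comes down without recognition of the Flag tag. All 3 libraries come from transgenic mice, and no source used here gives the promoter of the transgene. The labels do not say whether the Flag-IP libraries came from separate animals, so their spread may be technical.

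Most messenger RNAs are spliced in the nucleus before export. hnRNP proteins coat the nascent transcript and often favour the skipping of exons. SR proteins carry an RNA-binding domain and a tail rich in arginine and serine, bind exons and often favour their inclusion. The PRPF proteins take their names from yeast genes needed for pre-mRNA processing, and most are subunits or partners of the small nuclear ribonucleoproteins. Many hnRNP and SR proteins also control the splicing of their own transcripts.

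The libraries held 98227791 and 95824218 counts in Flag-IP 1 and Flag-IP 2, against 74176962 in IgG-IP, of which the 45 genes took 1185 and 996 in the Flag-IP libraries against 1170 in IgG-IP. Normalized counts below are counts scaled to a common effective library size, the total count times the TMM scaling factor. On that scale the 45 genes summed to 1276 and 986 in the Flag-IP libraries, against 1102 in IgG-IP. The 13 adipocyte markers checked had counts in every library and summed to 5909 and 3978 normalized counts in Flag-IP, against 3081 in IgG-IP. Most of that gap is Aqp7, a glycerol channel, with 2081 and 1615 normalized counts in Flag-IP against 185 in IgG-IP. Without it the sums are 3828 and 2363 in Flag-IP, against 2897 in IgG-IP, and Aqp7 and Plin1 were the 2 of 12 tested adipocyte markers that passed, both higher. Markers of skeletal muscle summed to 382 and 318 against 300, and without the most abundant, Ttn, to 148 and 84.2 against 45.2. Of 5 tested muscle markers 2 were higher, Ckm (log2 fold change 2.49) and Tnnt3 (1.98). The sums were 356 and 261 in Flag-IP against 275 in IgG-IP for fibroblast markers and 461 and 525 against 422 for endothelial ones, and none of these passed. Leukocyte markers summed to 364 and 349 in Flag-IP against 548 in IgG-IP, and without Ptprc to 183 and 140 against 204. Of 4 tested leukocyte markers 1 passed, Ptprc, which was lower. Cd14 and Lyz2, too low to test, each had 0 counts in both Flag-IP libraries and 4 in IgG-IP. Cd68, also not tested, had 4 and 6 counts against 2, and Csf1r had 20 and 19 against 21. In immunoprecipitates from whole tissue, the number of cells of a type, the RNA per cell and the recovery by the antibody cannot be told apart. The part of these markers in the results below was not tested. Fto itself had 230 and 291 counts in Flag-IP against 300 in IgG-IP, which does not check the labels since every mouse carried the transgene.

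Splicing-factor transcripts divided when Flag-IP was compared with IgG-IP, the comparison that asks which RNAs were bound by the tagged FTO. Of the 40 genes with enough counts to test, 7 were higher in Flag-IP (Prpf38b, Hnrnph1, Srsf1, Hnrnpu, Hnrnpul2, Hnrnpa2b1 and Prpf40b), 4 were lower (among them Srsf10, Srsf9 and Hnrnpk) and 29 did not pass the quasi-likelihood test of edgeR (Benjamini-Hochberg adjusted p under 0.05). The 7 and the 4 are 17.5% and 10% of the genes tested, against 5.58% higher and 5.77% lower among all 17587 genes tested and 5.22% and 5.97% among the protein-coding ones. The test has 1 residual degree of freedom, so its p-values rest on a spread shared between genes, and the lone IgG-IP library is assumed to vary as the Flag-IP libraries did. The counts were low: the highest mean over the 3 libraries was 79 counts, for Srsf9, and the median tested gene of the 3 families had a mean of 25. Prpf38b, Hnrnph1, Srsf1 and Hnrnpab had 3 or fewer counts in IgG-IP and passed the filter on low counts only through Flag-IP. A gene this low in IgG-IP could enter the test only when higher in Flag-IP. They are 4 of the 40 genes, against 627 of all 17587 genes tested.

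**Figure D1:**
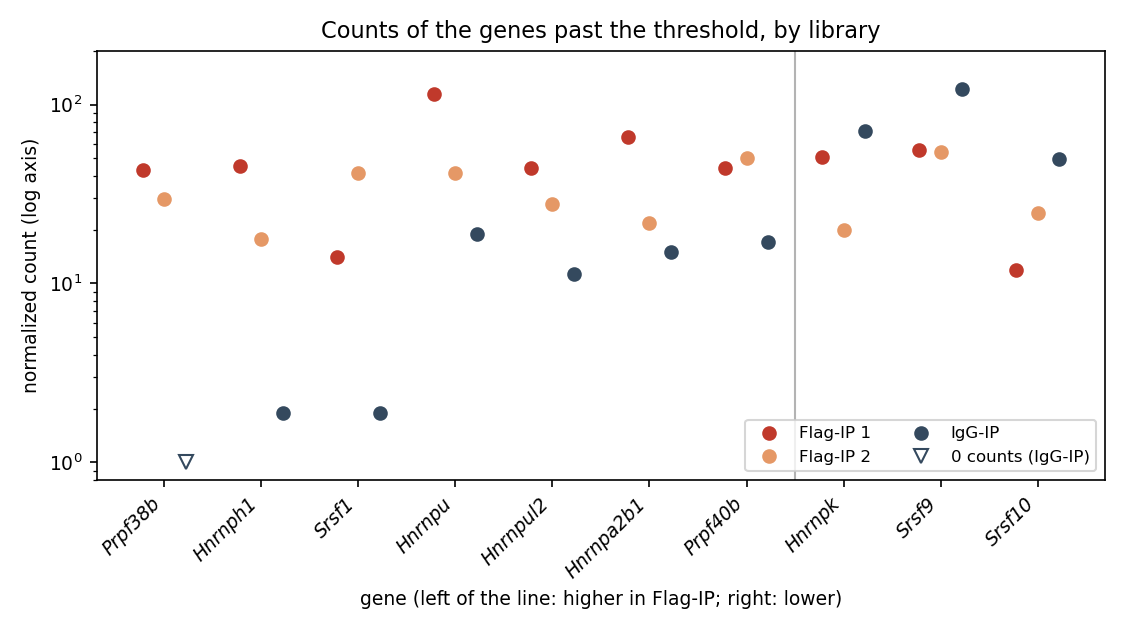
Normalized counts (log axis) of 10 genes past the threshold, 1 point per library, with the 7 higher genes left of the line and 3 lower genes right of it. The open triangle, drawn at 1, stands for the 0 counts of Prpf38b in IgG-IP. In every one of these genes both Flag-IP points lie on the same side of the IgG-IP point.

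Among the hnRNP genes, 4 of 18 tested were higher and 1 was lower. Their log2 fold changes had a median of 0.40, against 0.032 over all genes tested. Hnrnph1 encodes a splicing regulator that binds runs of guanine. It had 42 and 18 counts in Flag-IP, against 2 in IgG-IP (chromosome 11, 50376990 to 50386528, GRCm38). The pooled Flag-IP level was 16.4 times that of IgG-IP, with an exact 95% counting interval of 4.35 to 139, and the log2 fold change was 3.97 ± 0.85 (SE, edgeR adjusted p = 0.000146). Both Flag-IP libraries lay far above IgG-IP, and the width of the interval comes from the 2 IgG-IP counts.

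Hnrnpu encodes a large nuclear protein that binds RNA and chromatin (chromosome 1, 178321108 to 178337797). It had 106 and 42 counts in Flag-IP, against 20 in IgG-IP, a log2 fold change of 2.03 ± 0.41 (SE, edgeR adjusted p = 5.29e-05). The libraries did not overlap, but Flag-IP 1 was 2.74 times Flag-IP 2 in normalized counts. Hnrnpul2, a relative of Hnrnpu, had 41 and 28 counts against 12 (chromosome 19, 8820010 to 8834143; 1.65 ± 0.56). Both of its Flag-IP values stood above IgG-IP, Flag-IP 1 further than Flag-IP 2.

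Hnrnpa2b1 encodes an RNA-binding protein that also acts in the transport of transcripts (chromosome 6, 51460932 to 51469894). It had 61 and 22 counts in Flag-IP, against 16 in IgG-IP, a log2 fold change of 1.52 ± 0.50 (SE, edgeR adjusted p = 0.0264). Most of this came from 1 library: Flag-IP 1 had a log2 ratio to IgG-IP of 1.99 and Flag-IP 2 one of 0.48 (edgeR log2 CPM, prior count 2). Of its sequence of 36 bases at a time, 8.80% was shared with other annotated transcripts, chiefly the pseudogene Gm5778, which had 14 and 8 counts in Flag-IP against 6 in IgG-IP.

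The lower hnRNP gene was Hnrnpk, whose protein binds runs of cytosine (chromosome 13, 58391142 to 58403343). It had 47 and 20 counts in Flag-IP, against 76 in IgG-IP, a log2 fold change of -1.03 ± 0.36 (SE, edgeR adjusted p = 0.0414). Rmi1, a gene on the opposite strand whose exons overlap those of Hnrnpk by 330 bases, had nearly the same counts, 38 and 18 in Flag-IP against 78 in IgG-IP, and was lower too (log2 fold change -1.33, edgeR adjusted p = 0.0073). The strand setting of the counting is not known, so the counts of the 2 genes cannot be assigned with certainty to either. In addition, 42.2% of the 36-base stretches of Hnrnpk occur in other annotated transcripts. Overlap was not limited to Hnrnpk: 17 of the 45 genes overlap a gene with counts, 14 of them in exons. In 10 of them such a gene had at least 50% as many Flag-IP counts, among them Hnrnpd (with Gm17092) and Prpf39 (with Fkbp3).

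None of the other tested hnRNP genes passed the quasi-likelihood test. Hnrnpd, whose protein binds AU-rich elements of unstable messenger RNAs, had 23 and 16 counts in Flag-IP against 48 in IgG-IP, a log2 fold change of -1.16 ± 0.46 (SE, edgeR adjusted p = 0.0837). Hnrnpc, whose protein binds uridine tracts in pre-mRNA, had 24 and 22 against 44, Hnrnpr 20 and 22 against 41, and Hnrnpll, a regulator of splicing in lymphocytes, 41 and 45 against 79. In each of these 4 genes both Flag-IP libraries lay below IgG-IP, as they did in 7 of the 18 tested hnRNP genes and 39% of all genes tested. On the other side, Hnrnpdl had 16 and 18 counts in Flag-IP against 4 in IgG-IP (2.18 ± 0.92, edgeR adjusted p = 0.108), and Hnrnpl 48 and 32 against 23 (0.93 ± 0.46, edgeR adjusted p = 0.187). Hnrnpdl passed in the edgeR likelihood ratio test with a common dispersion (adjusted p = 0.0328), and its adjusted p under the 7 other settings that gave one ran from 0.0944 to 0.219.

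Hnrnpm (35 and 53 counts in Flag-IP against 41 in IgG-IP), Hnrnpf (19 and 25 against 20), Hnrnph3 (16 and 17 against 12), Hnrnpul1 (40 and 18 against 22), Hnrnpa0 (11 and 6 against 17) and Hnrnpa3 (4 and 11 against 14) had log2 fold changes between -0.85 and 0.59. Hnrnpab had 16 and 0 counts in Flag-IP against 2 in IgG-IP, so its IgG-IP value lay between those of the Flag-IP libraries. Hnrnpf shared 69.9% of its 36-base stretches with other annotated transcripts, Hnrnpab 32.6%, Hnrnpm 29.1% and Hnrnpa3 28.7%. Their values are therefore uncertain. March2, which shares 1169 exonic bases with Hnrnpm on the same strand, had 27 and 24 counts in Flag-IP against 37 in IgG-IP. Phykpl, opposite Hnrnpab with 809 shared exonic bases, had 28 and 26 against 18.

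The SR protein genes went both ways, with 1 of 9 tested higher, 2 lower and a median of 0.31 on the log2 scale. Srsf1, the founding member of the SR family, had 13 and 42 counts in Flag-IP, against 2 in IgG-IP (chromosome 11, 88047373 to 88053755). Its pooled Flag-IP level was 15.1 times that of IgG-IP, with an exact 95% counting interval of 3.98 to 127, and its log2 fold change was 3.81 ± 0.88 (SE, edgeR adjusted p = 0.000589). Both Flag-IP libraries lay above IgG-IP, Flag-IP 2 at 2.97 times Flag-IP 1. Gm11508, antisense to it and sharing 98 exonic bases, had 38 and 52 counts in Flag-IP against 46 in IgG-IP.

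Srsf9, an SR protein related to Srsf1, went the other way (chromosome 5, 115327177 to 115333080). It had 52 and 55 counts in Flag-IP, against 130 in IgG-IP, a log2 fold change of -1.15 ± 0.30 (SE, edgeR adjusted p = 0.00371). The Flag-IP libraries were close to each other, at 56.0 and 54.5 normalized counts, and lay well below the 122 of IgG-IP. In CPM per kilobase of exon, Srsf9 had the highest level of the 45 genes in every library, at 0.381 and 0.371 in Flag-IP against 0.834 in IgG-IP.

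The coding sequences of Srsf1 (744 bases) and Srsf9 (666 bases) have nearly the same base composition, at 58.7% and 58.6% GC, and are 69.7% identical over 664 aligned bases. Their whole transcripts differ, at 40.6% GC for Srsf1 and 56.2% for Srsf9. The first 150 coding bases of each are given because these related genes moved in opposite directions. They come from GENCODE M21 transcripts on GRCm38, 5′ to 3′ on the sense strand, with capitals marking GGAC, the core of the motif in which adenosines of messenger RNA are most often methylated.
Srsf1: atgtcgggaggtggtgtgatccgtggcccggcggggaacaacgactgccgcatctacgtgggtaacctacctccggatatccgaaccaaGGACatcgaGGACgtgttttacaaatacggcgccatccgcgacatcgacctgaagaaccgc
Srsf9: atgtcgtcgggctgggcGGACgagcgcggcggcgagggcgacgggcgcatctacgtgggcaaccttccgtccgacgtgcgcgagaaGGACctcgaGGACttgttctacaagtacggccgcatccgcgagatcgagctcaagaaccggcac

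GGAC was searched on the sense strand only, since these are RNA sequences. It occurs in the first 150 coding bases of 56.5% of the tested protein-coding genes. Over whole coding sequences Srsf1 holds 7 and Srsf9 holds 9, which is 9.41 and 13.5 per kilobase, against a median of 4.83 over 14883 tested protein-coding genes. The median was 5.67 per kilobase for the 7 higher genes, 3.62 for the 4 lower genes and 4.22 for the 40 genes tested. A match is a description of the letters and not a methylated site.

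Srsf10, an SR protein that can repress splicing when dephosphorylated, was the second lower gene of the family (chromosome 4, 135855747 to 135869908). It had 11 and 25 counts in Flag-IP, against 53 in IgG-IP, a log2 fold change of -1.43 ± 0.46 (SE, edgeR adjusted p = 0.0227). Both Flag-IP libraries lay below IgG-IP, Flag-IP 1 further than Flag-IP 2. Of its 36-base stretches, 11.0% occur in other annotated transcripts.

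Srsf7, an SR protein with a zinc knuckle that takes part in export of messenger RNA, had 52 and 58 counts in Flag-IP against 34 in IgG-IP (log2 fold change 0.82 ± 0.39, SE, edgeR adjusted p = 0.166). Srsf12 had 20 and 27 counts against 14, Srsf3 12 and 6 against 8, Srsf4 28 and 25 against 29, and Srsf11 17 and 14 against 18. None of these passed, and the value of Srsf4 is uncertain since 66.2% of its 36-base stretches lie in the overlapping transcript Gm12992. For Srsf3, 35.9% of the 36-base stretches occur in other annotated transcripts. Srsf5 had 27 and 2 counts in Flag-IP against 4 in IgG-IP, so the Flag-IP libraries fell on both sides of IgG-IP. Gm12966, a transcript that holds 33.5% of the 36-base stretches of Srsf5, had 35 and 14 counts in Flag-IP against 0 in IgG-IP.

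The PRPF genes had 2 of 13 higher, 1 lower and a median of -0.34 on the log2 scale. Of the 13 fold changes 9 were below 0, against 8564 of the 17587 over all genes tested. Prpf38b, a relative of a yeast splicing factor that activates the spliceosome, had 40 and 30 counts in Flag-IP and 0 in IgG-IP (chromosome 3, 108902805 to 108911727). Set against a floor of 3 counts for IgG-IP, it was 12.8-fold higher (edgeR adjusted p = 6.88e-08), 15.2-fold in Flag-IP 1 and 10.5-fold in Flag-IP 2. These ratios take the Flag-IP counts as exact. The exact 95% counting interval of the pooled ratio of Prpf38b began at 10.1. No gene of the count table overlaps Prpf38b and none of its 36-base stretches occurs in an annotated transcript of another gene. Its relative Prpf38a had 17 and 13 counts in Flag-IP against 25 in IgG-IP and did not pass.

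Prpf40b, a partner of the U1 particle at the 5′ splice site, was higher too (chromosome 15, 99295087 to 99317018). It had 41 and 51 counts in Flag-IP, against 18 in IgG-IP, a log2 fold change of 1.48 ± 0.47 (SE, edgeR adjusted p = 0.0224). The Flag-IP libraries stayed close to each other and apart from IgG-IP. Its transcript has 58.3% GC, and none of its 36-base stretches occurs in an annotated transcript of another gene. Fam186b, which lies within the span of Prpf40b on the opposite strand without shared exonic bases, had 16 and 23 counts in Flag-IP against 8 in IgG-IP.

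The 10 other PRPF genes did not pass. Of the subunits of the tri-snRNP, Prpf8, at the catalytic centre, had 10 and 19 counts in Flag-IP against 12 in IgG-IP, Prpf6 48 and 31 against 55, Prpf3 17 and 23 against 28, Prpf4 12 and 18 against 18, and Prpf31 15 and 13 against 6. Prpf39 of the U1 particle had 17 and 14 counts against 35, with a log2 fold change of -1.03 ± 0.53 (SE, edgeR adjusted p = 0.21). The kinase Prpf4b had 23 and 28 counts against 30, Prpf18, which acts in the second step of splicing, 37 and 20 against 43, and the ubiquitin ligase Prpf19 7 and 13 against 16.

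**Figure D2:**
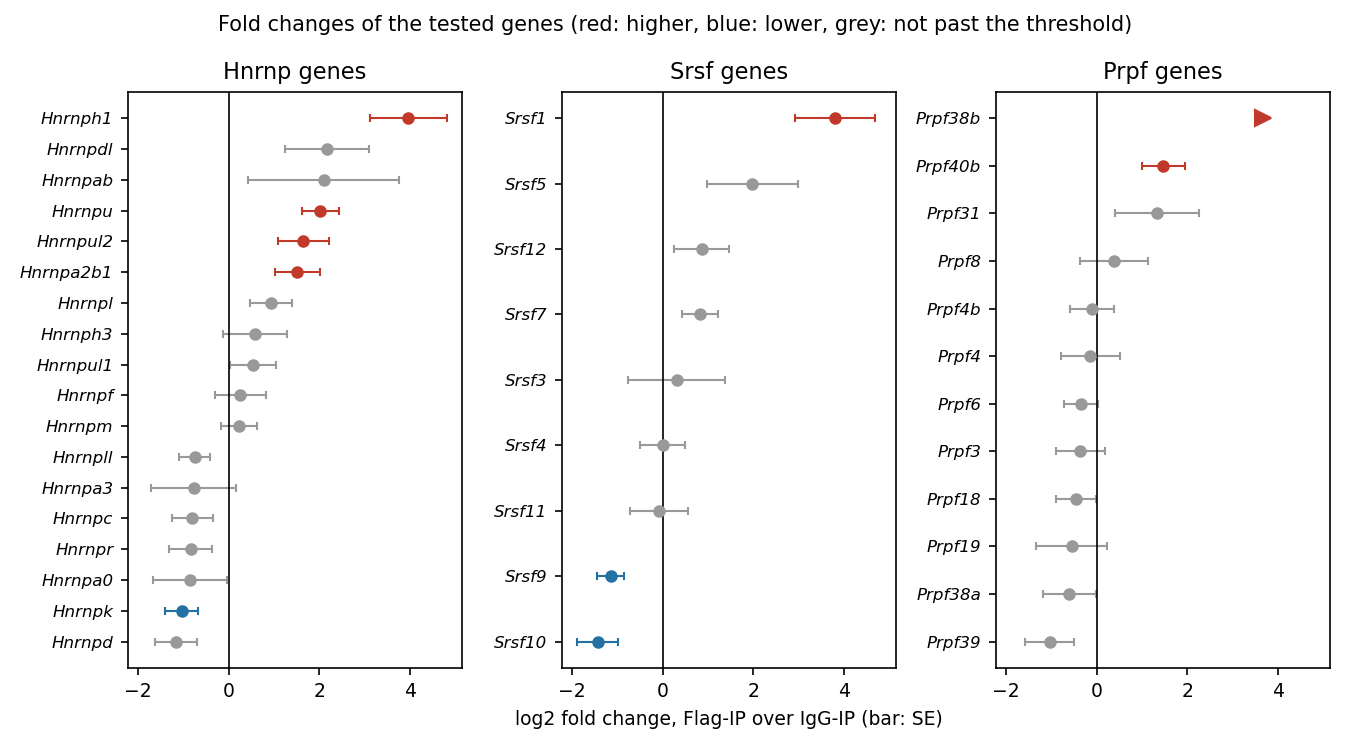
Log2 fold change of Flag-IP over IgG-IP with its SE for 39 of the tested genes, by family, with red for higher, blue for lower and grey for genes not past the threshold. The triangle of Prpf38b marks its value of 3.68 on the log2 scale against the floor of 3 counts, without an SE. The fold changes run from -1.43 for Srsf10 to 3.97 for Hnrnph1 apart from that value.

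The 5 genes with too few counts to test were Hnrnpa1 (3 and 4 counts in Flag-IP against 4 in IgG-IP), Hnrnpa1l2-ps (6 and 1 against 2), Hnrnph2 (8 and 4 against 0), Srsf2 (4 and 7 against 5) and Srsf6 (3 and 8 against 7). Hnrnpa1, whose protein is one of the most abundant hnRNP proteins in many cells, shares 48.1% of its 36-base stretches with other annotated transcripts, and how reads with several matches were counted is not given in the sources used here. Set against the floor of 3 counts, Hnrnph2 was 2.19-fold higher in Flag-IP, 3.05-fold in Flag-IP 1 and 1.40-fold in Flag-IP 2. These ratios take the Flag-IP counts as exact. The exact 95% counting interval of the pooled ratio of Hnrnph2 began at 1.52. With no filter on low counts its edgeR adjusted p was 0.252. Its coding sequence is 85.9% identical to that of Hnrnph1, of the same length (1347 bases), and the longest transcripts of the 2 genes share no stretch of 36 bases. Their first 150 coding bases, from the same source and without a GGAC, are given because both genes were nearly without counts in IgG-IP.
Hnrnph1: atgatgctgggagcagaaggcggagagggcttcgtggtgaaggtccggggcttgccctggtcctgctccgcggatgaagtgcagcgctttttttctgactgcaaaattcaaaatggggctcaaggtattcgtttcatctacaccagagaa
Hnrnph2: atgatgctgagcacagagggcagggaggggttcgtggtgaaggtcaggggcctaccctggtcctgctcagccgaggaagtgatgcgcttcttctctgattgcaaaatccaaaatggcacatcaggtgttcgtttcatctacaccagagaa

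On the log2 CPM scale with a prior count of 2, the Flag-IP libraries differed from each other by at least 2-fold in 9 of the 40 tested genes (22.5%), against 12.5% of all genes tested. In 7 of the 9 Flag-IP 1 was the higher one: Hnrnpab, Srsf5, Hnrnpa2b1, Hnrnpu, Hnrnpk, Hnrnph1 and Hnrnpul1. Srsf1 and Hnrnpa3 were higher in Flag-IP 2. Of the 18 tested hnRNP genes 7 were that far apart, with a median log2 difference of Flag-IP 1 minus Flag-IP 2 of 0.61, against 0.0047 over all genes tested, while none of the 13 PRPF genes was. Of the 11 genes past the threshold, 5 are among those 9. In normalized counts without a prior count, Srsf10, Srsf3 and Prpf18 also reached 2-fold. That gives 12 of 40 genes (30.0%) against 16.8% of all genes tested. Of the 12, 6 are past the threshold, out of the 11 called. Over all genes tested, 981 were called higher and 1015 lower, and 161 of these were that far apart. The p-values above do not take such a gene-specific gap into account. For called genes the choice of library moved the log2 ratio to IgG-IP: Flag-IP 1 had 2.48 and Flag-IP 2 had 1.06 for Hnrnpu, 3.60 and 2.35 for Hnrnph1, 1.79 and 1.16 for Hnrnpul2, 2.04 and 3.49 for Srsf1, -0.48 and -1.75 for Hnrnpk, and -1.91 and -0.96 for Srsf10. The family medians of this ratio were 0.32 in Flag-IP 1 and 0.082 in Flag-IP 2 for the hnRNP genes, 0.63 and -0.26 for the SR genes, which turned sign, and -0.18 and -0.20 for the PRPF genes. Over the 40 genes Flag-IP 1 had a median of 0.048 and Flag-IP 2 one of -0.20.

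Both Flag-IP libraries lay above IgG-IP in 14 of the 40 genes, against 40.5% of all genes tested, and below it in 17, against 39% of all genes tested, and IgG-IP lay between them in 9. By a rule of size on the log2 CPM scale, with no test, 7 genes were at least 2-fold higher in both Flag-IP libraries, against 9.07% of all genes tested, and 1 was at least 2-fold lower, against 4.24%. That rule, added after the values were seen, takes Hnrnpdl in place of Hnrnpa2b1 among the higher genes and leaves Srsf9 as the only lower one. In normalized counts the same rule takes 8 higher genes, against 11.3% of all genes tested, and 3 lower ones, against 5.61%.

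**Figure D3:**
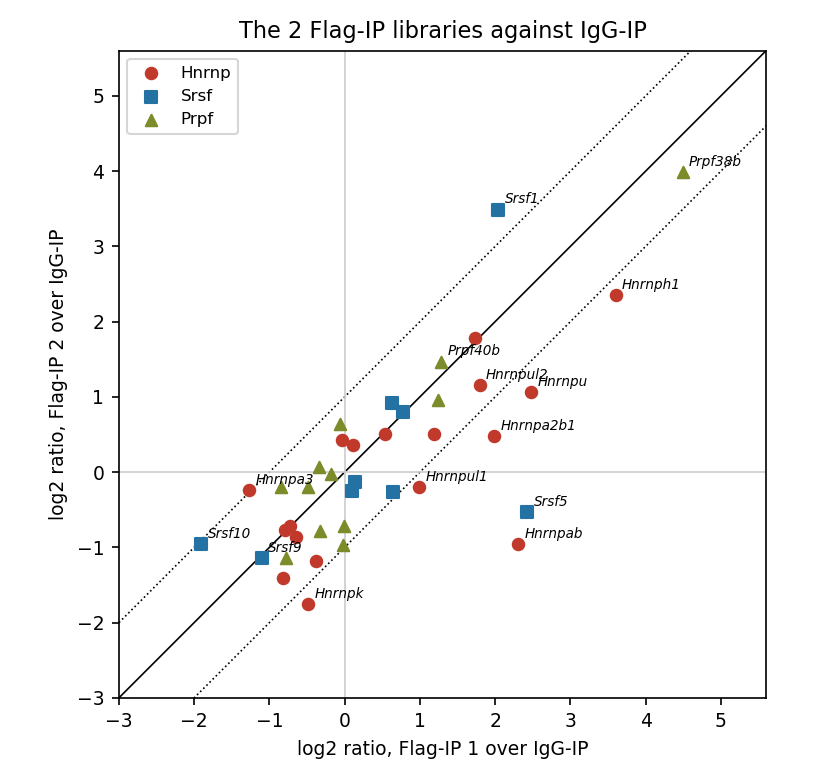
Log2 ratio to IgG-IP in Flag-IP 1 (horizontal axis) and Flag-IP 2 (vertical axis) for 39 of the tested genes, from edgeR log2 CPM (prior count 2), with the line of equality and dotted lines 2-fold to either side. Hnrnpab and Srsf5 lie furthest below the line, with positive ratios in Flag-IP 1 and negative ones in Flag-IP 2, and Srsf1 lies above it.

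Base composition moved with the comparison. Spearman's rho of log2 fold change with transcript GC was 0.23 over the 40 splicing-factor genes, whose mean counts began at 6. It was 0.64 over 9061 protein-coding genes averaging 20 or more counts, so the 2 values cover different ranges of counts. Both describe genes of the same 3 libraries, which are no replicates. Their median transcript GC was 45.1%, against 48.9% over all genes tested. With a trend on GC removed from each library, 6 of the 11 calls held: Prpf38b, Hnrnph1 (log2 fold change 4.25), Srsf1 (4.39), Hnrnpu (2.63), Hnrnpa2b1 (1.92) and Srsf9 (-1.70). Of the 4 lower genes 3 were lost, among them Srsf10 (-0.87, edgeR adjusted p = 0.369) and Hnrnpk (-0.57, edgeR adjusted p = 0.505). Prpf40b (0.80, edgeR adjusted p = 0.448) and Hnrnpul2 (1.62, edgeR adjusted p = 0.0716) were lost too, and Srsf7 (1.37, edgeR adjusted p = 0.0151) was gained. Under that setting 6 of the 40 genes were higher and 1 was lower, against 419 higher and 317 lower of all 17587 genes tested.

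**Figure D4:**
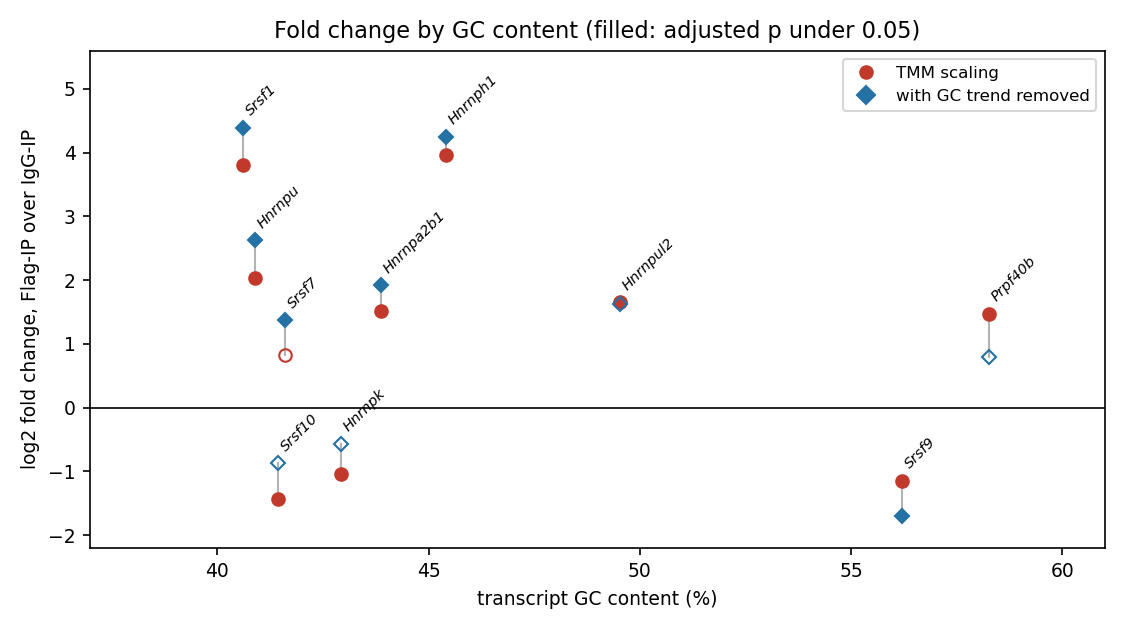
Log2 fold change against transcript GC content for 9 of the genes past the threshold and for Srsf7, with TMM scaling alone (circles) and with the GC trend removed (diamonds), filled where the adjusted p is under 0.05. Prpf38b is left out because its fold change has only a bound. Fold changes of the genes with 45.4% GC or less move up when the trend is removed, and those of Prpf40b and Srsf9 move down.

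Scaling mattered as well. Scaling to total counts shifted the median gene by -0.52 on the log2 scale. With it 4 of the 40 genes were higher (Prpf38b, Hnrnph1, Srsf1 and Hnrnpu). The 9 lower ones were the 4 lower genes above together with Hnrnpc, Hnrnpd, Hnrnpll, Hnrnpr and Prpf39. Over all 17587 genes tested, 342 were higher and 3008 lower with that scaling.

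The rest of the splicing machinery was followed through 6 lists. Their counts are to be read beside the 5.58% of all genes tested that were higher and the 5.77% that were lower. Of the genes named as higher below, Crnkl1, Puf60, Snrpa and Clk2 had 3 or fewer counts in IgG-IP. They passed the filter on low counts only through Flag-IP, so they could enter the test only when higher there. Of 23 tested factors of the Prp19 complex and helicases, 5 were higher and 0 lower (median log2 fold change 0.57). The largest were Crnkl1, a scaffold of the active spliceosome (18 and 19 counts in Flag-IP against 2 in IgG-IP), the helicase Ddx23 (42 and 24 against 6) and the helicase Ddx39b, which also acts in RNA export (42 and 61 against 10). With the GC trend removed these 3 stayed higher, while Dhx16 and Ctnnbl1, the other two, were lost. With scaling to total counts 2 of the 23 were higher (Ddx23 and Ddx39b), 4 were lower (Aqr, Cwc22, Cwc27 and Dhx15) and the median was 0.074.

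Of 29 tested snRNP protein genes 3 were higher and 1 lower (median 0.29). Snrnp70, the U1 protein that binds U1 RNA, had 91 and 101 counts in Flag-IP against 24 in IgG-IP (log2 fold change 2.12 ± 0.38, SE, edgeR adjusted p = 1.89e-06), and Sart1 (34 and 28 against 8) and Sart3 (88 and 69 against 30), which serve the tri-snRNP and its recycling, were higher too. Snrpn, an imprinted Sm protein gene, was lower with 66 and 81 counts against 154. With the GC trend removed, Snrnp70 held and Sart1 and Sart3 did not, while Snrpn has no GC value here, so no trend was removed for it. With scaling to total counts 1 snRNP gene was higher (Snrnp70), 2 were lower (Snrpn and Sf3b1) and the median was -0.24, and in the likelihood ratio test Snrpa was higher and Snrpn did not pass.

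Of 31 SR-related proteins and coactivators 4 were higher and 0 lower (median 0.17): Puf60 (10 and 18 counts in Flag-IP against 0 in IgG-IP), Pnn (33 and 22 against 5), Zrsr2 (47 and 39 against 10) and Srrm2 (65 and 73 against 21). Puf60, which helps recognise the 3′ splice site, was lost with the GC trend removed. With scaling to total counts these 4 were higher, 3 of the list were lower (Bclaf1, Luc7l2 and Rsrc1) and the median was -0.34.

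Among 12 kinases and importers of SR proteins, Tnpo1, an importer of hnRNP A1, was lower with 64 and 42 counts in Flag-IP against 116 in IgG-IP (log2 fold change -0.99 ± 0.31, SE, edgeR adjusted p = 0.0193), and none was higher in the quasi-likelihood test. It was lost with the GC or the length trend removed and in the likelihood ratio test, which called Clk2, a kinase of SR proteins, higher (8 and 16 counts in Flag-IP against 2 in IgG-IP). Of 23 hnRNP-type proteins with other symbols, such as the polypyrimidine tract proteins, 0 passed the edgeR test in either direction (1 higher and 5 lower at an unadjusted p under 0.05), with a median of -0.36. By the same unadjusted edgeR p, 2268 of all 17587 genes tested were higher and 2072 lower. DESeq2 called 0 of them and gave no adjusted p for 16, while 2 were higher and 1 lower with the GC trend removed and 8 were lower with scaling to total counts. Of 8 exon junction complex and decay factor genes, 0 passed the edgeR test and 0 reached an unadjusted p under 0.05, with a median of -0.18, and DESeq2 gave no adjusted p for any of them.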

How the data were processed

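The authors deposited whole-number counts for each Ensembl gene, unnormalized, with a column for each library, per the file headers. CASAVA 1.7, Bowtie 0.12.2 and build mm8 are named in the submitters' processing notes. How reads were assigned to genes, with which annotation and whether by strand, is not given in the sources used here. Positions, GC and lengths come from GENCODE M21 (GRCm38), matched by Ensembl identifier (37693 of 39179 genes, all 45 described here), and none are in mm8. Transcript GC, coding sequence and shared stretches of 36 bases (either strand) use the longest coding transcript of each gene.

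Genes were kept by edgeR's filterByExpr (minimum count 10), leaving 17587. TMM factors were 0.840 and 0.936 for the Flag-IP libraries and 1.27 for IgG-IP, and the common dispersion was 0.0359. Flag-IP was tested against IgG-IP with edgeR 4.0.16 (R 4.3.3, glmQLFTest, Benjamini-Hochberg over all genes, threshold 0.05). The SE is the size of the log2 fold change divided by the square root of F. Single-library ratios use log2 CPM with a prior count of 2. The fit was tested on simulated data, with changed genes averaging at least 50 counts, more than most genes described here. Counting intervals are exact binomial (Clopper-Pearson) and cover counting error only. The floor of 3 counts covers counting error in IgG-IP only. Trends on GC or exonic length were lowess fits per library on protein-coding genes averaging 20 or more counts, used as offsets. DESeq2 1.42.0 was an alternative. The lipid list of the authors was not used.

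The members and lists were chosen with earlier results of these data known. The genes of the 3 families are given with their counts, apart from 1 that is not reported here but enters the counts and medians. Of each other list, called genes are named, up to 3 in each direction with the largest fold change. Rmi1, Gm11508, Gm5778, Gm12966, Gm12992, March2, Phykpl, Gm17092, Fkbp3, the pairs of related genes, the printed sequences and GGAC were chosen after values were seen.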

Additional observations from a re-analysis of the deposited data

How the results depend on the processing

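The count of higher genes (7) was within 1.5 times under RLE, upper-quartile and under-10000-count scaling, a likelihood ratio test, GC and length trends and the 2-fold rule. It was 4 with total-count scaling, 4 with no filter on low counts and 1 at a mean of at least 50 counts, where 3 genes were tested. The count of lower genes (4) was 9 with total-count scaling, 1 at a mean of at least 50 counts, 1 with the GC trend removed and 1 by the 2-fold rule on log2 CPM, against 3 on normalized counts. Total-count scaling called 342 of all 17587 genes tested higher and 3008 lower. DESeq2 gave no adjusted p for any of the 40 genes. The median log2 fold change of the 40 genes (0.12) was -0.40 with total-count scaling and -0.65 at a mean of at least 50 counts, and ranged from -0.20 to 0.048 without 1 Flag-IP library. The hnRNP median (0.40) was -0.12 and 0.73 in those settings, and 0.082 to 0.32 without 1 library. The SR median (0.31) was -0.22 with total-count scaling, -1.05 at a mean of at least 50 counts, 0.95 with the GC trend removed and -0.26 to 0.63 without 1 library. The PRPF median (-0.34) was -0.86 with total-count, -0.27 with upper-quartile and -0.35 with under-10000-count scaling, -0.39 with no filter, -0.072 with the GC trend and -0.39 with the length trend removed, -0.36 and -0.26 with prior counts of 0.5 and 10, and -0.20 to -0.18 without 1 library. Medians without 1 library and with prior counts of 0.5 and 10 come from single-library log2 CPM ratios, not from a new fit. They are a different measure from the edgeR medians they stand beside. Apart from settings built on fewer genes or 1 library, the cause of the changes was not tested. None of the 11 called genes reversed under a setting that was run. Hnrnpk also lost its call with upper-quartile and under-10000-count scaling, no filter and the likelihood ratio test (edgeR adjusted p from 0.0523 to 0.0769). No paired analysis was possible because the labels do not say which libraries came from the same animals.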
